A study of Homo sapiens with 9 samples.

Results

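The genes described here encode the extracellular matrix and the receptors by which cells hold on to it. They were the rows of the deposited gene table that carry the KEGG term ECM-receptor interaction, together with every row named as an integrin subunit or a laminin chain. This rule took 85 of the 33861 genes, 78 of them by the KEGG term and 7 by name alone. The 85 genes were 12 laminin chains, 15 collagen chains, 18 integrin alpha subunits, 8 integrin beta subunits, 17 other matrix proteins, 14 receptors that are not integrins and ITGBL1, an integrin-like protein that is not a subunit.

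The cells were HCT116, an established human colorectal carcinoma line, and total RNA depleted of ribosomal RNA was sequenced from 3 groups of 3 libraries. NC, the control group, is labelled with neither factor. Activin cells received activin A, a ligand of the TGF-beta family, at 100 ng/mL for 5 days. Activin+HGF cells received the same course and then hepatocyte growth factor (HGF) at 20 ng/mL for another 5 days. No group had the second 5 days without HGF, so HGF and the longer culture cannot be told apart, and how long the NC cells were cultured is not given in the sources used here. Nothing in the labels says that the 3 libraries of a group came from separate cultures, so p-values measure only the spread between these libraries.

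Laminins are trimers of an alpha, a beta and a gamma chain and form, with type IV collagen, the sheet of basement membrane under an epithelium. Integrins are dimers of an alpha and a beta subunit that bind laminin, collagen or fibronectin outside the cell and the actin cytoskeleton inside. LAMA3 and LAMB3 are chains of laminin-332, the epithelial laminin bound by the integrins alpha3 beta1 and alpha6 beta4 and known in colorectal carcinoma from the invading edge of tumours.

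Levels of 1 gene across libraries are normalized counts, as CPM of the TMM-scaled library (counts scaled to a common library size), and levels of different genes are compared only as FPKM, which is divided by gene length. Differences are log2 fold changes of edgeR's quasi-likelihood test with an approximate standard error, and a gene was called higher or lower where the Benjamini-Hochberg adjusted p over the 20988 genes tested was under 0.05 and the log2 fold change was 1 or more in size. Of the 85 genes, 67 passed the filter on low counts. The other 18 never exceeded 38 counts or an FPKM of 0.1 in any library. They were COL1A2, COL4A2, COL6A6, COL9A1, LAMA1, LAMB4, ITGA4, ITGA8, COMP, IBSP, RELN, THBS2, TNN, VTN, GP5, GP6, SV2B and SV2C.

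Counts on genes summed to 57453977 to 77016167 per library. The TMM factors were 1.03 to 1.07 in NC, 0.988 to 1.17 in Activin and 0.783 to 0.926 in Activin+HGF, and Activin library 2 (0.988) and Activin+HGF library 1 (0.783) stood apart from the others of their group. The 6 epithelial markers (EPCAM, CDH1, KRT8, KRT18, KRT19, CDX2) were present in every library, with a summed FPKM of 666 to 720 in NC, 555 to 759 in Activin and 645 to 875 in Activin+HGF. Of the fibroblast markers the 3 in the table were each under an FPKM of 1 in every library, and so were the 2 endothelial and the 3 leukocyte markers. The 2 platelet markers looked for were not found by name in the gene table, so their levels are unknown. In bulk RNA, fewer cells of a type and less RNA per cell cannot be told apart.

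The promoters of 2 laminin-332 chains and of the fibronectin receptor subunit ITGA5 are shown because these genes were among those that rose and because their windows hold the letters of an AP-1 site. Each window, from RefSeq on GRCh38.p14, runs from 250 bases before a gene's start to 50 bases after it. Capitals mark matches to TGANTCA, the AP-1 motif, and in ITGA5 also the match to the TEAD motif CATTCC read on the opposite strand. Positions are counted from -1 at the base before the start. LAMA3 has matches beginning at -125 and -69, LAMB3 at -67 and ITGA5 at -6 (AP-1) and -82 (TEAD).
LAMA3, chr18:23872770-23873069, plus strand: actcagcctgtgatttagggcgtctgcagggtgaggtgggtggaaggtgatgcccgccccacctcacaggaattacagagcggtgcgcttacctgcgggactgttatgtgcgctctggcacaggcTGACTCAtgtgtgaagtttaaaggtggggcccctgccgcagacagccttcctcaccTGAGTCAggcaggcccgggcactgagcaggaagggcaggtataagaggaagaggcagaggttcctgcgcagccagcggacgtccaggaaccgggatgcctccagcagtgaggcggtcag
LAMB3, chr1:209651325-209651624, minus strand: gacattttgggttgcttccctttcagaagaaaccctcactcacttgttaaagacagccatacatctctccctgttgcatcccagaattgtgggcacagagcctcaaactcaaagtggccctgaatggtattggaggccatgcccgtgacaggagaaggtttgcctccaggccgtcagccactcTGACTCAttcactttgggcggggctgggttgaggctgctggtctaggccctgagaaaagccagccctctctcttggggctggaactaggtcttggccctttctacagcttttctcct
ITGA5, chr12:54419217-54419516, minus strand: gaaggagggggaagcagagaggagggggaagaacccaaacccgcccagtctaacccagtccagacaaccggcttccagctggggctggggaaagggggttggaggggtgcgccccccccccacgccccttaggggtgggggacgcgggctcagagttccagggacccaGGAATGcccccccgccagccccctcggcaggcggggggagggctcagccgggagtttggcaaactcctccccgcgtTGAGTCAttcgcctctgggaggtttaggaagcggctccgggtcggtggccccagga

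The LAMA3 window lies inside the gene, which the deposited table places on chromosome 18 from 23689443 to 23956222. LAMB3 (chromosome 1, 209614870 to 209652425) has 3 windows in the RefSeq table, and the one shown also lies inside the gene. The others, from 209652280 to 209652579 and from 209652376 to 209652675, span the deposited start of the gene and hold no match. Of the 85 genes, 66 had a promoter in the table, and ITGA3 had no entry. TGANTCA was found in 7.71% of all 35116 promoters and in 4 of the 66 genes, which were CD36, ITGA5, LAMA3 and LAMB3. Among the 25 genes called higher in any comparison, 16 had an entry and 3 of these held the motif. The forkhead motif TGTTTAC was found in 3.42% of all promoters and in COMP alone of the 66, the palindromic SMAD motif GTCTAGAC in 0.202% and in 0 of the 66, and CATTCC in 14% and in 11 of the 66. The percentages count promoter windows, whereas a gene was counted if any of its windows held the motif. Genes with several windows, such as LAMB3, had more room for a match, so the gene counts and the percentages are not directly comparable. All motifs were searched on both strands, and a match is a description of the letters only.

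Activin against NC gave 16 higher calls among the 67 genes (23.9%), against 6.78% of all genes tested. None was called lower, against 4.62% of all genes tested. With DESeq2 17 were higher and 0 lower, where 2922 of all genes were called, 60.8% of them higher. At an unadjusted p under 0.05 edgeR had 31 higher and 3 lower (CD44, LAMA2 and SPP1). The share of all genes at that looser cut is not given here, and the shares above do not apply to it. The median log2 fold change was 0.61 over the 67 genes and 0.02 over all genes tested. By role, 5 of 10 laminin chains, 3 of 16 integrin alpha subunits, 0 of 8 integrin beta subunits, 2 of 11 collagen chains, 4 of 11 other matrix proteins and 2 of 10 other receptors were called higher. Between Activin and Activin+HGF cells, 2 genes were called higher, with a background of 3.87%, and 4 lower, with a background of 4.21%. The medians were then 0.02 and -0.04. Between NC and Activin+HGF cells, 23 were called higher (34.3%), with a background of 11.3%, and 4 lower, with a background of 10.2%. This comparison shares its libraries with the other two, and its medians were 0.71 and -0.03.

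**Figure D1:**
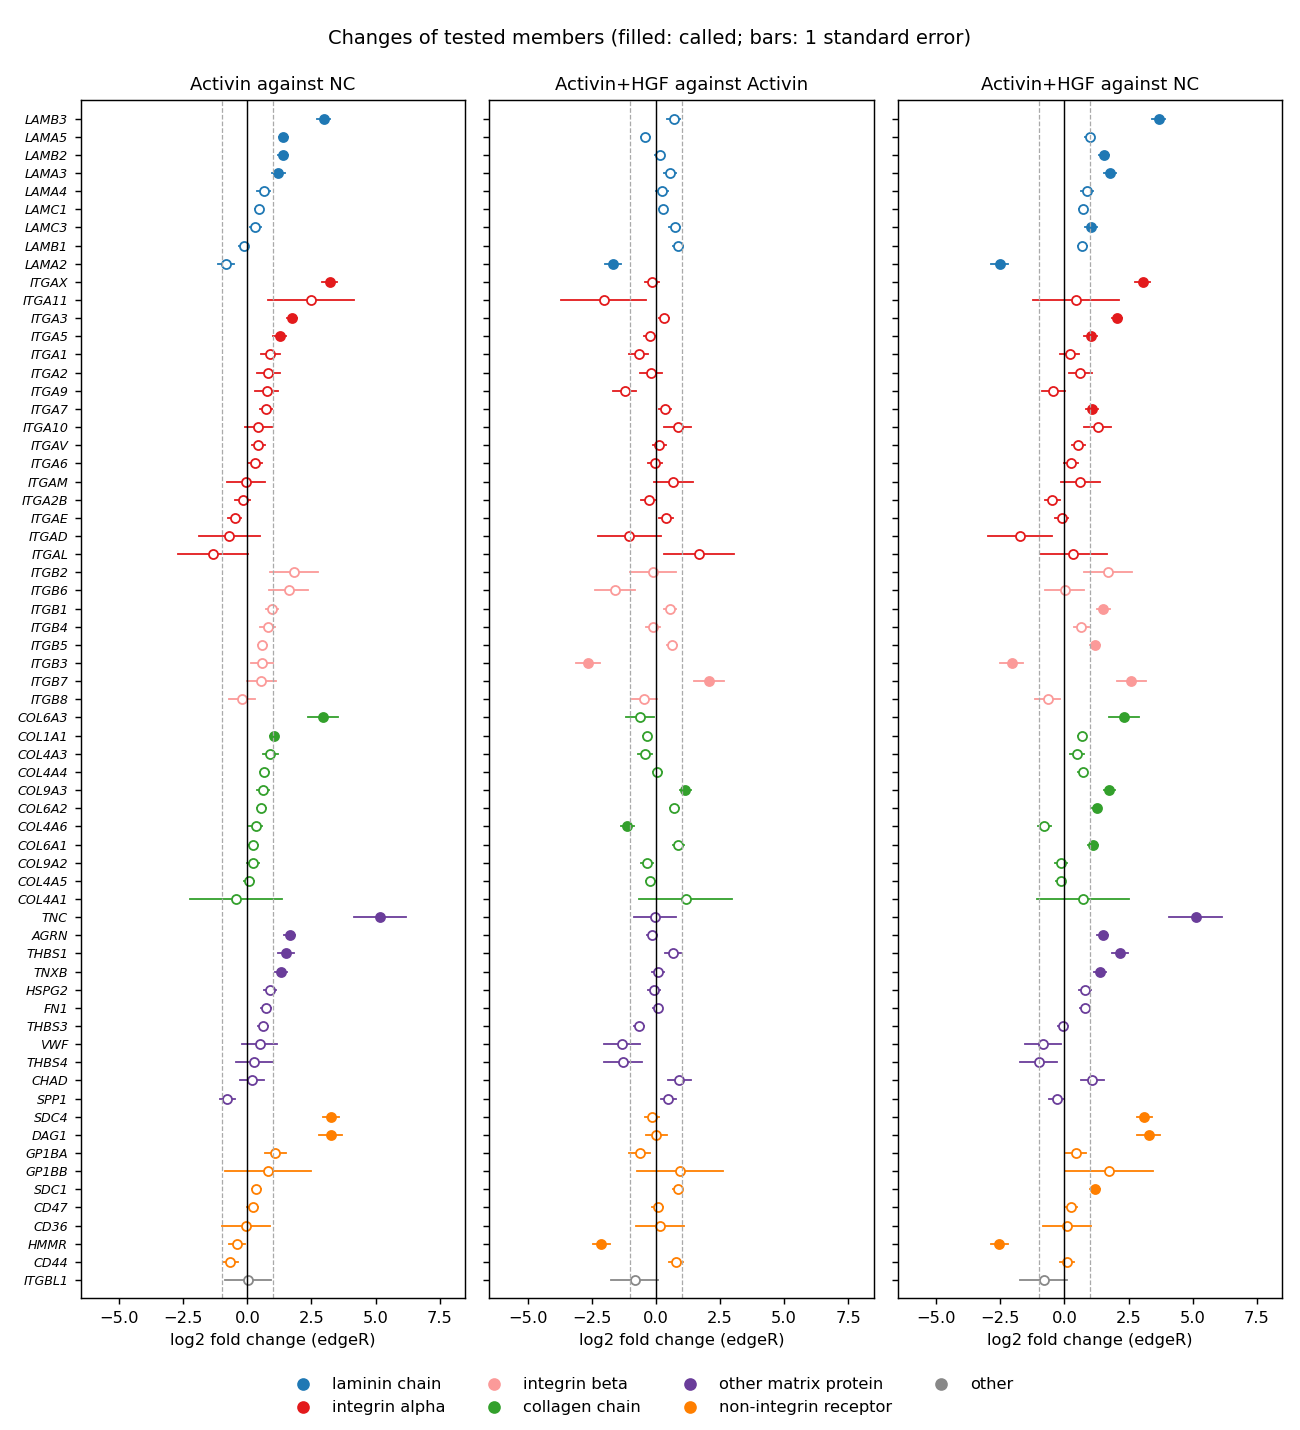
Log2 fold change with 1 standard error (edgeR) of tested genes in each comparison, grouped by role, with filled points for called genes and dashed lines at a log2 fold change of 1 in either direction. Calls are spread over laminins, integrin alpha subunits, collagens, other matrix proteins and receptors in the first panel, and 6 genes are filled in the middle panel. SV2A, whose 3 Activin+HGF libraries are at 0, is among those left out.

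Library scaling bears on the comparisons with Activin+HGF. Without scaling factors, that is, with library totals alone, the median of all genes moved by -0.34 between Activin and Activin+HGF, by -0.27 between NC and Activin+HGF and by 0.08 between NC and Activin. The called genes of the list then became 0 higher and 5 lower between Activin and Activin+HGF, 16 higher and 5 lower between NC and Activin+HGF, and 17 higher and 0 lower between NC and Activin. Of all called genes, the share that was higher moved from 47.9% to 15% between Activin and Activin+HGF and from 52.6% to 33.4% between NC and Activin+HGF. A measure without scaling factors is the share of all counts that fell on the 85 genes. It was 0.288 to 0.326% in the NC libraries, 0.644 to 0.743% in the Activin libraries and 0.622 to 0.714% in the Activin+HGF libraries. The NC libraries were thus apart from both treated groups, and the treated groups overlapped. ITGA3, ITGB1, SDC4, LAMB3, ITGB4 and CD44 held 43 to 47.8% of these counts in NC, 52.7 to 54.6% in Activin and 53.6 to 58.9% in Activin+HGF. Without these 6 genes, the remaining 79 took 0.164 to 0.17%, 0.299 to 0.35% and 0.281 to 0.331% of all counts, in the same order.

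Among the laminins, LAMB3 and LAMA3, chains of laminin-332, rose with activin. LAMB3, the beta chain, measured 53, 57 and 57.1 CPM in the NC libraries, 401, 554 and 360 CPM in the Activin libraries and 978, 619 and 530 CPM in the Activin+HGF libraries. Every treated library stood above every NC library, while Activin library 2 exceeded 1 of the Activin+HGF libraries. LAMB3 was 7.87-fold higher with activin (log2 fold change 2.98 ± 0.261, adjusted p = 9.11e-05, edgeR) and 12.7-fold higher with activin and HGF (3.67 ± 0.269, adjusted p = 2.27e-05, edgeR). Between Activin and Activin+HGF its log2 fold change was 0.69 ± 0.243, which was not called (adjusted p = 0.0857, edgeR).

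LAMA3, the alpha chain, measured 19.1, 13.7 and 17.5 CPM in NC, 43.8, 26.2 and 46.8 CPM in Activin and 61.7, 59.1 and 51.5 CPM in Activin+HGF. In CPM the groups did not overlap, although Activin library 2 lay closer to NC than to the other Activin libraries. In FPKM the treated groups overlapped. LAMA3 was 2.32-fold higher with activin (1.21 ± 0.238, adjusted p = 0.00643, edgeR) and 3.42-fold higher with activin and HGF (1.77 ± 0.241, adjusted p = 0.000545, edgeR). Between Activin and Activin+HGF its log2 fold change was 0.56 ± 0.235, which was not called (adjusted p = 0.138, edgeR).

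The chains of the other laminins moved less evenly. LAMA5, the alpha chain of laminin-511 and laminin-521, rose from 119, 119 and 113 CPM in NC to 336, 337 and 252 CPM in Activin (1.40 ± 0.173, adjusted p = 0.000565, edgeR). It measured 204, 265 and 222 CPM in Activin+HGF, where its log2 fold change against NC was 0.98 ± 0.172 (adjusted p = 0.00219, edgeR) and just missed the minimum fold. The gene for ADRM1, a proteasome subunit with a mean of 11928 counts, overlaps LAMA5 in the table, and whether reads were counted by strand is not given in the sources used here. LAMB2, the beta chain of laminin-521, measured 89.7, 89.8 and 86.3 CPM in NC, 202, 299 and 196 CPM in Activin and 295, 246 and 226 CPM in Activin+HGF. It rose by 1.39 ± 0.197 with activin and stood 1.53 ± 0.198 above NC after HGF (adjusted p = 0.00118 and 0.000409, edgeR), and the treated groups overlapped.

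LAMB1 and LAMC1, the beta and gamma chains shared by many laminins, were not called in any comparison. LAMC1 measured 117, 124 and 120 CPM in NC, 175, 164 and 152 CPM in Activin and 203, 201 and 188 CPM in Activin+HGF. In these TMM-scaled values its groups were ordered without overlap at small steps. In FPKM its treated groups overlapped, at means of 18.4 in Activin and 17.1 in Activin+HGF. LAMB1 measured 61, 55.2 and 64.3 CPM in NC, 64.3, 43.1 and 54.9 CPM in Activin and 112, 92.6 and 88.7 CPM in Activin+HGF, and its Activin+HGF libraries stood above all others. The LAMB1 log2 fold change after HGF was 0.85 ± 0.187 (adjusted p = 0.0179, edgeR) and was 0.48 with library totals (adjusted p = 0.132). LAMC3, a gamma chain, was called only in the comparison of Activin+HGF with NC (1.04 ± 0.228, adjusted p = 0.00677, edgeR), from 15.9, 18.3 and 15.9 CPM to 35.7, 35.1 and 32.1 CPM. That call was lost without NC library 1 (0.96) and with library totals (0.77). LAMA4 was at 3.44 to 8.55 CPM in the 9 libraries and was not called.

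LAMA2, the alpha chain of the muscle laminin-211, was the laminin that fell. It measured 12, 8.83 and 10 CPM in NC, 6.8, 4.08 and 6.35 CPM in Activin and 1.32, 1.56 and 2.46 CPM in Activin+HGF. The 3 groups did not overlap. The step with activin was -0.84 ± 0.303 and was not called (adjusted p = 0.0822, edgeR), the step after HGF was -1.69 ± 0.313 (adjusted p = 0.0105, edgeR), and Activin+HGF lay 5.77-fold under NC (-2.53 ± 0.321, adjusted p = 0.00037, edgeR). Its mean FPKM was at most 0.897 in any group, and it was named after its values were seen.

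Per length, the order of the laminin chains differed between the groups. In NC cells the highest mean levels were those of LAMC1 (12.8 FPKM), LAMB2 (11.6 FPKM) and LAMB3 (10.8 FPKM), followed by LAMA5 (7.35 FPKM) and LAMB1 (6.69 FPKM). In Activin cells LAMB3 led with 88.5 FPKM, before LAMB2 (31.7 FPKM), LAMA5 (20.4 FPKM) and LAMC1 (18.4 FPKM). In Activin+HGF cells LAMB3 stood at 109 FPKM. LAMA3, their partner in laminin-332, was at a mean of 1.03, 2.56 and 2.85 FPKM in the 3 groups, far below LAMB3 on this scale.

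**Figure D2:**
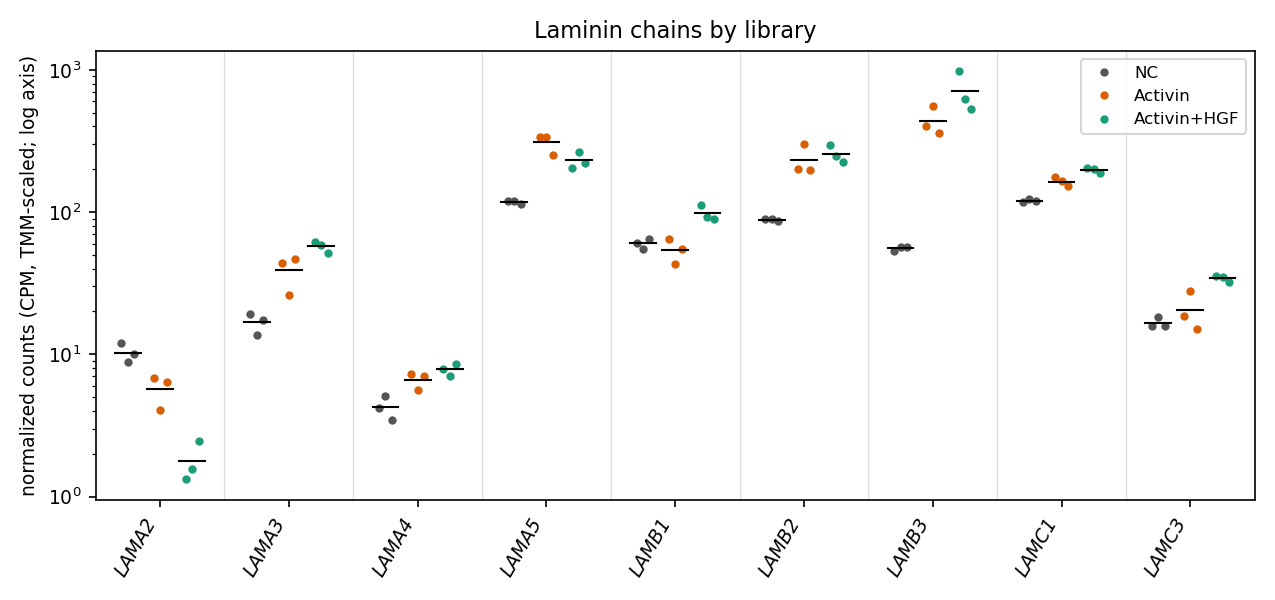
Normalized counts (CPM, TMM-scaled, log axis) of laminin chains, with 1 point per library and a black line at each group mean. LAMA3, LAMA5, LAMB2 and LAMB3 lie above NC in every Activin library, while LAMA2 steps down from NC to Activin to Activin+HGF.

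Among the integrin alpha subunits, ITGA3 had the highest mean level over the 9 libraries (67.6 FPKM). ITGA3, the alpha3 subunit that pairs with beta1 as a laminin receptor (chromosome 17, 50055968 to 50090480), measured 270, 294 and 281 CPM in NC, 828, 1224 and 766 CPM in Activin and 1126, 1186 and 1188 CPM in Activin+HGF. All treated libraries stood above all NC libraries, and the treated groups overlapped. The difference was 3.34-fold with activin (1.74 ± 0.19, adjusted p = 0.000291, edgeR) and 4.14-fold with activin and HGF (2.05 ± 0.192, adjusted p = 7.08e-05, edgeR). ITGA5, the alpha subunit of the fibronectin receptor, measured 70.6, 84.6 and 73.3 CPM in NC, 151, 261 and 137 CPM in Activin and 132, 172 and 160 CPM in Activin+HGF. It too was above NC in every treated library.

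The ITGA5 increase was 1.26 ± 0.245 with activin and 1.02 ± 0.244 with activin and HGF (adjusted p = 0.00619 and 0.0101, edgeR). The first call was lost without Activin library 2 (0.91). The second was lost without NC library 1 (0.93), NC library 3 (0.99), Activin+HGF library 2 (0.94) or Activin+HGF library 3 (0.99), without Activin library 1 or 3 (0.98 each), which share the estimate of spread and the scaling, and with library totals (0.77). ITGA7, the alpha subunit of a laminin receptor of muscle, was called higher only against NC after HGF (1.07 ± 0.248, adjusted p = 0.00881, edgeR), at 17.4, 15.4 and 14 CPM in NC and 42, 29.3 and 26.8 CPM in Activin+HGF. This call was lost without NC library 3 (0.99) or Activin+HGF library 1 (0.85) and with library totals (0.78). The genes BLOC1S1 and METTL7B, with means of 1208 and 643 counts, overlap ITGA7 on the other strand.

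ITGAX, which encodes CD11c, an alpha subunit of leukocyte integrins, measured 1.63, 1.03 and 1.08 CPM in NC, 11.3, 12.2 and 11.3 CPM in Activin and 13.2, 10.4 and 7.53 CPM in Activin+HGF. The difference was 9.3-fold with activin (3.22 ± 0.293, adjusted p = 0.000114, edgeR) and 8.31-fold with activin and HGF (3.05 ± 0.291, adjusted p = 7.85e-05, edgeR). Its mean level was 0.157 FPKM in NC, 1.55 FPKM in Activin and 1.05 FPKM in Activin+HGF. ITGB2, the only beta subunit known to pair with it, averaged 0.01, 0.0367 and 0.0267 FPKM in these groups. The neighbours of ITGAX on chromosome 16, ITGAM and ITGAD, were not called, and the leukocyte marker PTPRC reached at most 0.02 FPKM in any library.

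ITGB1, the beta1 subunit shared by most matrix integrins, was the most abundant integrin subunit at means of 55.9, 116 and 129 FPKM. It measured 481, 302 and 336 CPM in NC, 917, 582 and 678 CPM in Activin and 1199, 1213 and 782 CPM in Activin+HGF. Each treated library stood above each NC library. Its difference from NC was 0.96 ± 0.252 with activin, past the adjusted p (0.025, edgeR) and just under the minimum fold, and 1.51 ± 0.256 with activin and HGF (adjusted p = 0.00173, edgeR). The partners of beta1 other than ITGA3, ITGA5 and ITGA7 were not called in any comparison. ITGA2, a collagen receptor subunit, ranged from 30.5 to 81 CPM in NC, from 57.4 to 180 CPM in Activin and from 77.8 to 105 CPM in Activin+HGF, and ITGAV ranged from 42.8 to 57.5, from 41.6 to 79.6 and from 61.4 to 87.4 CPM. ITGA1, ITGA9, ITGA10 and ITGA11 were each under a mean of 1 FPKM in all groups.

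The integrin of hemidesmosomes, alpha6 beta4, was not called in either subunit. ITGB4 measured 187, 223 and 213 CPM in NC, 297, 530 and 248 CPM in Activin and 234, 365 and 387 CPM in Activin+HGF (0.79 ± 0.287 and 0.66 ± 0.287 against NC, adjusted p = 0.0854 and 0.104, edgeR). In CPM the treated libraries were all above NC but spread widely. In FPKM, Activin+HGF library 1 (22.66) lay below the NC libraries (25.42, 28.97 and 28.2). ITGA6 measured 113, 93.4 and 103 CPM in NC, 141, 122 and 118 CPM in Activin and 96.1, 191 and 85.7 CPM in Activin+HGF, and its Activin+HGF libraries lay on both sides of NC. On the per-length scale ITGA3 went from 25.8 to 89.7 FPKM with activin while ITGA6 went from 13.8 to 18.1 FPKM, so the means of these laminin-binding alpha subunits stood further apart in Activin cells.

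ITGB5, which pairs with ITGAV as a vitronectin receptor, measured 74.4, 71.6 and 64.4 CPM in NC, 92, 134 and 89.3 CPM in Activin and 154, 160 and 170 CPM in Activin+HGF. Its groups did not overlap in CPM, but its treated groups overlapped in FPKM. It was called only between NC and Activin+HGF (1.20 ± 0.186, adjusted p = 0.00107, edgeR), a call lost with library totals (0.94). ITGB3, the other vitronectin receptor beta subunit, was lowly expressed at 0.683 to 1.03 CPM in NC, 1.04 to 1.61 CPM in Activin and 0.147 to 0.281 CPM in Activin+HGF. It fell by 2.64 on the log2 scale after HGF (SE 0.458, adjusted p = 0.00823, edgeR), and it was also lower than in NC (-2.06 ± 0.452, adjusted p = 0.00669, edgeR). ITGB7, which pairs with ITGAE to bind E-cadherin, measured 0.637, 0.193 and 0.41 CPM in NC, 0.611, 0.961 and 0.24 CPM in Activin and 2.9, 2.22 and 2.48 CPM in Activin+HGF. It was called higher in Activin+HGF than in NC (2.61 ± 0.581, adjusted p = 0.00713, edgeR), a call lost in 1 alternative fit. After HGF it was also called higher than with activin alone (2.07 ± 0.567, adjusted p = 0.0391, edgeR). Leaving out any 1 library other than NC library 2 and Activin library 2 ended that call (adjusted p 0.0561 to 0.124), and so did library totals (adjusted p = 0.0565).

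ZNF740, with a mean of 4500 counts, overlaps ITGB7 on the other strand. ITGAE was at 7.42 to 16.6 CPM in the 9 libraries and was not called. ITGB3 and ITGB7 were under a mean of 1 FPKM in every group and were named after their values were seen. ITGB6 and ITGB8 stayed under a mean of 1 FPKM and were not called.

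**Figure D3:**
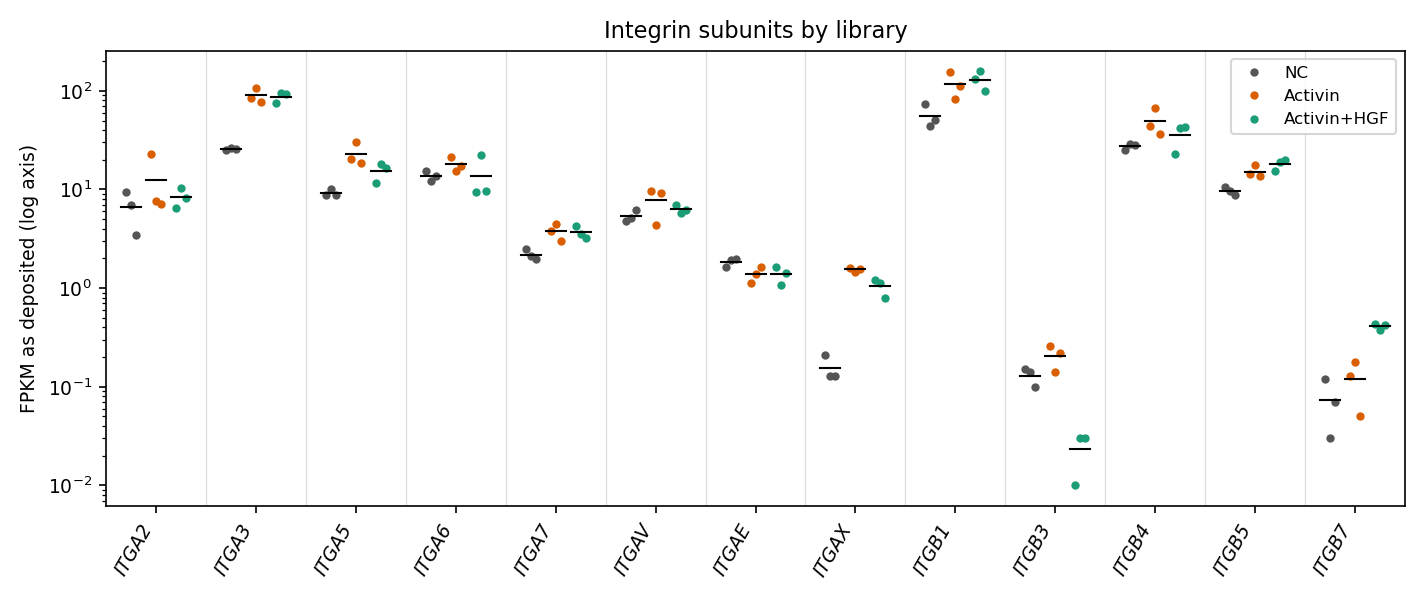
FPKM as deposited (log axis) of 13 integrin subunits, with 1 point per library and a black line at each group mean. ITGA3 and ITGB1 are the highest of these subunits in the treated cells, ITGAX lies above its NC libraries in all treated libraries, and ITGB3 is lowest in Activin+HGF.

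Of the receptors that are not integrins, SDC4 and DAG1 showed the greatest rises. SDC4, syndecan-4, a heparan sulfate proteoglycan of focal adhesions (chromosome 20, 45325288 to 45348424), measured 84.1, 88.4 and 87.2 CPM in NC, 713, 1037 and 742 CPM in Activin and 1146, 526 and 581 CPM in Activin+HGF. Every treated library stood far above NC, and Activin+HGF library 1 was apart from the other 2 of its group. SDC4 was 9.59-fold higher with activin (3.26 ± 0.306, adjusted p = 0.00014, edgeR) and 8.67-fold higher with activin and HGF (3.12 ± 0.304, adjusted p = 8.63e-05, edgeR). With a mean of 178 FPKM over the 9 libraries it was the most abundant of the 85 genes, at 29.7 FPKM in NC, 299 FPKM in Activin and 204 FPKM in Activin+HGF.

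DAG1, dystroglycan, which binds laminin and agrin through its sugar chains (chromosome 3, 49468703 to 49535618), measured 7.79, 31.3 and 19.2 CPM in NC, 163, 240 and 156 CPM in Activin and 134, 215 and 219 CPM in Activin+HGF. The NC libraries spread widely yet stayed below every treated library. The log2 fold change was 3.26 ± 0.449 with activin and 3.28 ± 0.45 with activin and HGF (adjusted p = 0.00103 and 0.000563, edgeR), and 0.02 ± 0.411 between the treated groups. SDC1, syndecan-1, measured 59.9, 72.1 and 71.2 CPM in NC, 76.2, 109 and 73.9 CPM in Activin and 164, 150 and 151 CPM in Activin+HGF. It was called between NC and Activin+HGF (1.20 ± 0.186, adjusted p = 0.00111, edgeR), a call lost with library totals (0.93).

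HMMR, a hyaluronan-binding protein that is also found on the mitotic spindle, fell. It measured 45.5, 40.2 and 42.8 CPM in NC, 30, 24.3 and 42.7 CPM in Activin and 4.06, 7.71 and 10.4 CPM in Activin+HGF. NC and Activin overlapped and Activin+HGF lay below both. HMMR was 4.38-fold lower after HGF than with activin alone (-2.13 ± 0.329, adjusted p = 0.00589, edgeR) and 5.8-fold lower than in NC (-2.54 ± 0.334, adjusted p = 0.000448, edgeR). CD44, the main hyaluronan receptor, measured 385, 269 and 214 CPM in NC, 192, 177 and 178 CPM in Activin and 456, 232 and 252 CPM in Activin+HGF. It was not called in any comparison (0.78 ± 0.283 after HGF, adjusted p = 0.0945, edgeR), and its NC and Activin+HGF libraries overlapped. CD47 ranged from 25.9 to 48.4 CPM over the 9 libraries.

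SV2A, a synaptic vesicle glycoprotein that the KEGG term includes, held 0 counts in all 3 Activin+HGF libraries and 0.131, 0.669 and 0.509 CPM in NC. The NC mean of 0.436 CPM was 7.92 times a floor of 3 counts in the smallest Activin+HGF library (0.0551 CPM). NC library 1, at 0.131 CPM, lay nearer to that floor. The call was lost without NC library 2 (adjusted p = 0.0614) or NC library 3 (adjusted p = 0.0552, edgeR). SV2A was named after its values were seen.

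Of 11 tested collagen chains, 2 were called higher and 0 lower with activin. After HGF, 1 was called higher and 1 lower than with activin alone. Between NC and Activin+HGF, 4 were called higher and 0 lower. COL1A1, a chain of type I collagen (chromosome 17, 50184101 to 50201632), measured 24, 24.5 and 22.4 CPM in NC, 47.7, 44.7 and 52.8 CPM in Activin and 39.7, 40.3 and 33 CPM in Activin+HGF. Its groups did not overlap. It rose by 1.03 ± 0.162 with activin (adjusted p = 0.00205, edgeR), was not called after HGF, and the call was lost without NC library 3 (0.99). COL1A2, which forms type I collagen with it, was among the genes too low to test. COL6A3 was low at 0.131, 0.803 and 0.994 CPM in NC, 5.92, 5.11 and 3.99 CPM in Activin and 3.95, 3.33 and 2.4 CPM in Activin+HGF, and rose by 2.95 ± 0.582 and 2.32 ± 0.57 against NC (adjusted p = 0.0066 and 0.0117, edgeR).

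COL6A1 and COL6A2, the other chains of type VI collagen, lie 93062 bases apart on chromosome 21 and were far more abundant than COL6A3 per length. COL6A1 measured 130, 136 and 134 CPM in NC, 145, 208 and 117 CPM in Activin and 306, 295 and 265 CPM in Activin+HGF. COL6A2 measured 98, 105 and 103 CPM in NC, 136, 182 and 128 CPM in Activin and 274, 252 and 208 CPM in Activin+HGF. In both the Activin+HGF libraries stood above all the others. Against NC they were called higher after HGF (1.11 ± 0.205 and 1.26 ± 0.183, adjusted p = 0.00273 and 0.000747, edgeR), and both calls were lost with library totals (0.84 and 0.99). COL9A3, a chain of type IX collagen, measured 16.4, 22.4 and 18.9 CPM in NC, 27.1, 36.1 and 25.1 CPM in Activin and 77.8, 64.7 and 51.5 CPM in Activin+HGF.

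COL9A3 was 2.2-fold higher after HGF than with activin alone (1.14 ± 0.22, adjusted p = 0.0123, edgeR) and 3.36-fold higher than in NC (1.75 ± 0.224, adjusted p = 0.000387, edgeR). The first of these calls was lost without Activin library 1 (adjusted p = 0.0629), Activin library 3 (adjusted p = 0.0566) or Activin+HGF library 1 (0.99) and with library totals (0.79). TCFL5, with a mean of 1475 counts, overlaps COL9A3 on the other strand.

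Type IV collagen genes lie head to head in pairs. COL4A3 and COL4A4 are 171 bases apart on chromosome 2, and COL4A5 and COL4A6 are 341 bases apart on chromosome X. COL4A3 measured 6.28 to 9.78 CPM in NC and 10.2 to 17.8 CPM in Activin, and COL4A4 measured 12.7 to 13.9 CPM and 18.4 to 23.9 CPM. Neither overlapped between these groups in CPM, although COL4A3 did in FPKM (0.99 in NC library 1 and 0.96 in Activin library 2). Neither reached the minimum fold (0.90 ± 0.275 and 0.66 ± 0.173, adjusted p = 0.0462 and 0.0242, edgeR). The second pair moved apart after HGF. COL4A6 went from 6.67, 6.28 and 8.84 CPM in Activin to 2.68, 3.59 and 3.76 CPM in Activin+HGF (-1.12 ± 0.251, adjusted p = 0.0197, edgeR), whereas COL4A5 was at 34.7, 32.2 and 38.1 CPM and then 31.3, 32 and 26.8 CPM (-0.22 ± 0.183, adjusted p = 0.457, edgeR). The difference between the pair was not tested. The COL4A6 call was lost without Activin library 1 (adjusted p = 0.0533), Activin library 3 (adjusted p = 0.0594) or Activin+HGF library 1 (-0.98). COL4A1, the main chain of most basement membranes, was at 0 to 0.496 CPM. COL4A6 and COL6A3 were under a mean of 1 FPKM in each group and were named after their values were seen.

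Among the other matrix proteins, AGRN, THBS1, TNC and TNXB rose with activin. AGRN, agrin, a heparan sulfate proteoglycan that binds laminin and dystroglycan (chromosome 1, 1020120 to 1056118), measured 76, 91 and 74.2 CPM in NC, 231, 332 and 195 CPM in Activin and 239, 234 and 205 CPM in Activin+HGF. It was 3.14-fold higher with activin (1.65 ± 0.211, adjusted p = 0.000688, edgeR) and 2.81-fold higher with activin and HGF (1.49 ± 0.21, adjusted p = 0.000658, edgeR). THBS1, thrombospondin-1, which binds CD36 and CD47 and can activate latent TGF-beta, measured 6.48, 7.76 and 6.31 CPM in NC, 22.6, 16 and 19.9 CPM in Activin and 48.7, 23 and 20.5 CPM in Activin+HGF. Its treated libraries were all above NC, and Activin+HGF library 1 was the highest. The THBS1 difference was 1.51 ± 0.32 with activin and 2.16 ± 0.326 with activin and HGF (adjusted p = 0.00947 and 0.000938, edgeR).

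TNXB, tenascin-X, measured 9.69, 9.87 and 9.27 CPM in NC, 24, 27.8 and 19.8 CPM in Activin and 32.3, 25.8 and 17.1 CPM in Activin+HGF (1.31 ± 0.245 and 1.38 ± 0.245 against NC, adjusted p = 0.00509 and 0.00226, edgeR). TNXB has a near-identical partial copy beside it and overlaps CYP21A2, so its counts are uncertain. TNC, tenascin-C, was at 0 counts in 2 of the 3 NC libraries and at 0.199 CPM in the other, against 2.86, 3.15 and 1.81 CPM in Activin and 3.2, 2.92 and 1.48 CPM in Activin+HGF. It was called higher than NC in both (adjusted p = 0.00698 and 0.00427, edgeR), at a level under a mean of 1 FPKM in every group, and was named after its values were seen. FN1, fibronectin, measured 38, 37.2 and 33.7 CPM in NC and 64.2, 62.4 and 54.7 CPM in Activin, without overlap but under the minimum fold (0.73 ± 0.187, adjusted p = 0.0222, edgeR). HSPG2, perlecan, behaved alike at 65.8, 74 and 67.5 CPM and then 118, 174 and 88.1 CPM (0.88 ± 0.227, adjusted p = 0.0235, edgeR).

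**Figure D4:**
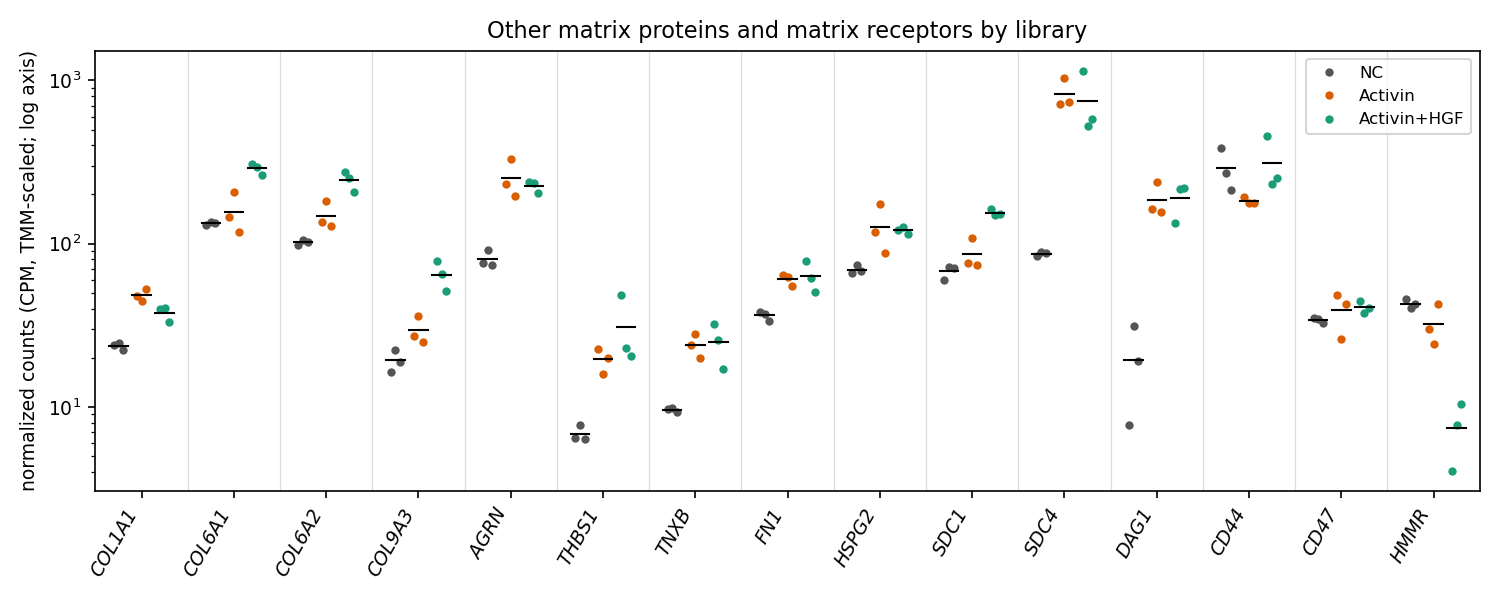
Normalized counts (CPM, TMM-scaled, log axis) of collagens, other matrix proteins and receptors that are not integrins, with 1 point per library and a black line at each group mean. SDC4 and DAG1 rise from NC to both treated groups, COL6A1, COL6A2, COL9A3 and SDC1 are highest in Activin+HGF, and HMMR is lowest there.

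After HGF the count of 6 called genes depended on single libraries more than the other comparisons did. It was 3 without Activin library 1, Activin library 3 or Activin+HGF library 1, and 12 without Activin library 2. Regardless of the size of the change, 7 of the 67 genes were higher and 5 lower at an adjusted p under 0.05 (edgeR). Of all 20988 genes tested, 2698 passed this cut, 57.6% of them higher. Besides the 6 called, the matrix and receptor genes that passed included COL6A1, COL6A2, LAMB1 and SDC1, which were higher, and THBS3, which was lower. Against NC, 5 genes with activin (COL4A3, COL4A4, FN1, HSPG2 and ITGB1) passed the adjusted p below the minimum fold, all of them higher. At any fold, 21 of the 67 were then higher and 0 lower, while 3776 of all genes tested passed, 53.2% of them higher.

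Lists of genes outside the 85 that act beside them were read against the same backgrounds, 6.78% higher and 4.62% lower with activin, 3.87% and 4.21% after HGF, and 11.3% and 10.2% between NC and Activin+HGF. Of 32 adaptors of focal adhesions, the sites where integrins meet actin, 4 were called higher and 0 lower with activin, 0 and 2 after HGF, and 4 and 5 between NC and Activin+HGF. Their median log2 fold changes were 0.28, -0.26 and 0.06, and 2 of the 4 higher calls between NC and Activin+HGF were lost with library totals. FLNA, a filamin that crosslinks actin and binds integrin tails, rose with activin from a mean of 603 ± 41.9 CPM to 1456 ± 535 CPM (SD, n = 3). NEDD9, a docking protein of focal adhesions, was low and rose from a mean of 0.466 CPM in NC to 2.86 CPM in Activin (2.61 ± 0.632, adjusted p = 0.0173, edgeR). TNS4 and TNS2, tensins that bind integrin tails, fell after HGF from means of 86.8 and 8.32 CPM to 26.6 and 3.55 CPM. Those 4 increases with activin and 2 decreases after HGF were also called with library totals.

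Of 26 tested genes for collagen folding and crosslinking, 2 rose with activin, 1 after HGF and 6 between NC and Activin+HGF, and 0 fell. The medians were 0.39, 0.37 and 0.60, and 4 of the 6 calls between NC and Activin+HGF were lost with library totals, among them those of P4HA1 (0.96) and P4HA3 (0.98). P4HA2 and P4HA1, catalytic subunits of the collagen prolyl hydroxylase, rose with activin by 1.38 ± 0.222 and 1.06 ± 0.208 (adjusted p = 0.00228 and 0.00652, edgeR). LOXL2, a lysyl oxidase that crosslinks collagen, measured means of 47.8, 90.5 and 142 CPM and was called between NC and Activin+HGF (1.57 ± 0.219, adjusted p = 0.000619, edgeR). COLGALT1, which adds galactose to collagen, was called after HGF (1.03 ± 0.2) but not with library totals (0.70). Of 10 other genes of basement membrane and hemidesmosome, 1 was called higher and 0 lower with activin, 1 and 1 after HGF, and 3 and 2 between NC and Activin+HGF, with medians of 0.04, 0.32 and 0.57. PLEC, plectin, which ties hemidesmosomes to keratin filaments, rose with activin from a mean of 482 ± 25.3 to 1658 ± 584 CPM (SD, n = 3). SPARC, a collagen-binding matrix protein, averaged 1.03, 0.646 and 3.21 CPM in the 3 groups and was higher after HGF than with activin alone (2.31 ± 0.458, adjusted p = 0.013, edgeR). COL18A1, whose product is a basement membrane collagen, averaged 64.5, 120 and 206 CPM and was higher in Activin+HGF than in NC (1.67 ± 0.241, adjusted p = 0.000731, edgeR). NID1, nidogen-1, which bridges laminin and type IV collagen, averaged 0.79 ± 0.662 CPM in NC, 0.15 ± 0.0812 CPM in Activin and 0 CPM in Activin+HGF (SD, n = 3). It was called lower in Activin+HGF than in either other group, but at these levels the calls rest on few counts.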

How the data were processed

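Total RNA of 9 HCT116 libraries, 3 per group by the treatment labels, was depleted of ribosomal RNA and sequenced as paired ends. The table that the authors deposited holds unnormalized read counts and, for the same genes, FPKM, scaled by the authors for depth and length. The submitters' processing notes name cutadapt 1.9, HISAT2 2.0.4 and StringTie 1.3.4d. The genome build and strand setting are not given in the sources used here. All 85 genes overlap the gene of the same identifier in GENCODE 29 on GRCh38, and 70 share its start or end, so coordinates are given as deposited and read as GRCh38. Depth was 57453977 to 77016167 counts per library. Multiples of 4 made up 35% of the counts between 1 and 40 (25% if even), so a count need not be 1 fragment, and floors cover counting error only.

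All 9 libraries entered edgeR 4.0.16 in R 4.3.3 (filterByExpr, TMM, glmQLFit, glmQLFTest) with a mean per group and no block, and standard errors are the log2 fold change over the root of F. The procedure was tested on simulated data. Genes were named if called and at a mean FPKM of at least 1 in a group, if among the 10 most abundant, or as partner chains. Others were named outside these rules, among them FN1, HSPG2, COL4A3, COL4A4, COL4A5, CD47 and THBS3. The members and lists were chosen with earlier results of these data known. Alternatives used DESeq2 1.42.0, limma 3.58.1 on log2(FPKM + 0.1) and log2(FPKM + 1), other scaling and filters, other thresholds, a replicate block, only the libraries compared, counts divided by 4, and each library left out. Some genes that meet these rules are not reported here. The other genes of the series were not analysed here beyond the tests and backgrounds.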

Additional observations from a re-analysis of the deposited data

How the results depend on the processing

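Between NC and Activin, the count of called genes was 16 and stayed within 1.5 times of it under every alternative (15 to 19 with single libraries left out). Between Activin and Activin+HGF it was 6, and it became 2 with a filter at a mean FPKM of 1, 1 with limma on log2(FPKM + 1), 12 with no minimum fold change, 2 at an adjusted p under 0.01, and 3 to 12 with single libraries left out (3 without Activin library 1, Activin library 3 or Activin+HGF library 1, and 12 without Activin library 2). Between NC and Activin+HGF it was 27, and it became 16 with limma on log2(FPKM + 0.1), 10 with limma on log2(FPKM + 1) and 25 to 28 with single libraries left out. The filter and thresholds change which genes can be called by construction, a pseudocount shrinks the fold of low genes, and the cause of the other changes was not tested. Of the 49 calls behind these counts, 29 were lost under at least 1 alternative and 0 changed direction, and of 98 values of named genes that were not called 13 became called and 28 changed sign. With the replicate block the counts were 16, 5 and 26, and the calls it ended were those of ITGB7 after HGF (adjusted p = 0.0611) and of SV2A (adjusted p = 0.0515, edgeR). Deviations of same-numbered libraries correlated at -0.0606 to 0.0882, and in 6 of 18 comparisons a library correlated best with its own number, so the numbers were not taken to pair the libraries. Each group has 3 libraries, which limits the precision, and genes near the floor of 3 counts, such as SV2A and TNC, rest on few counts.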
